A study of Mus musculus with 8 samples.

Results

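Immediate early and heat shock genes, 35 in number, were followed across 55114 annotated genes in RNA of intestinal crypts from mice with and without Mex3a. They were chosen by name as genes that mark stress during handling of tissue. No rule on measured values was used, but earlier results of these data were known when they were chosen. Of them, 23 are immediate early genes and 12 are heat shock genes. The RNA-binding protein Mex3a marks a subset of intestinal stem cells, and the study compared 4 Mex3a-/- mice (KO) with 4 littermate controls (WT), all on the C57BL/6 strain and 8 weeks old. The KO is constitutive, with exon 1 and part of exon 2 of Mex3a deleted in every tissue. Crypts of both genotypes were released by EDTA for 15 min at 37 °C and by vigorous shaking before RNA was extracted, so all 8 samples passed through the same kind of handling. The reads are of whole crypt fractions, and in such bulk RNA fewer cells of a type and less RNA per cell cannot be told apart.

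Immediate early genes are transcribed within minutes of a stimulus from factors already present in the cell, with no need for new protein. Many of their products are transcription factors, such as the Fos and Jun proteins that pair as AP-1, and many of the others end the response again by removing phosphate from kinases or by destroying the messages. Heat shock genes are switched on by the factor Hsf1 when unfolded protein builds up, and their products are chaperones that hold, refold or disassemble other proteins. Both programmes are known to start when tissue is warmed and dissociated.

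Between 20324184 and 24726221 reads per WT mouse and between 23489180 and 30654105 per KO mouse were counted on genes. Reads of Mex3a numbered 269, 236, 327 and 328 in WT replicates 1 to 4, against 20, 28, 6 and 8 in the KO mice, so each library matched its label. The 10 markers of crypt epithelium summed to 16822 to 42727 CPM, counts scaled to a fixed library size, over the 8 mice, and 4 of the 10 were called, with Vil1 and Krt8 higher and Lgr5 and Olfm4 lower in KO. Replicates 1 and 2 of both genotypes held reads of the Y-linked gene Ddx3y (1073 to 1655 counts), and replicates 3 and 4 held Xist (36964 to 50562). CPM were computed with TMM factors, and the counts were tested with edgeR's quasi-likelihood test in the 16109 genes that passed a filter on low counts. A gene was called at an unadjusted p under 0.05, the limit the study used, and the p adjusted over all genes tested is given beside it. By that limit 8.38% of all genes tested were called, 5.33% higher and 3.05% lower in KO. After adjustment 0.00621% were called, which is Mex3a alone.

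Of the 35 genes, 34 passed the filter. Cxcl1, a chemokine that draws neutrophils, did not, with 0 to 0.55 CPM per mouse. Among the 34, Ier5 was called higher in KO and no gene was called lower, with the smallest adjusted p at 0.378. With the replicate number as a block 6 were called (smallest adjusted p = 0.181), with Ier5, Sgk1, Gadd45b and Gadd45a higher and Hsph1 and Dnaja1 lower, against 11.3% of all genes tested in that fit. The median log2 fold change (KO minus WT) was 0.10 over the 22 immediate early genes tested and -0.34 over the 12 heat shock genes, against -0.02 over all genes tested. In this fit the 12 heat shock genes had a fold change below 0, as did 8684 of the 16109 genes tested, and 14 of the 22 immediate early genes had one above 0. With 1 mouse left out the immediate early median ran from 0.022 (without WT replicate 4) to 0.18 (without KO replicate 2), and the count above 0 from 12 (without WT replicate 4 or KO replicate 1) to 20 (without WT replicate 1). Genes of one programme move together between mice, so these signs are not independent of each other. Without WT replicate 2 the heat shock median was -0.08 and 8 of the 12 were below 0, while Hspa1a (0.54), Hspa1b (0.20), Bag3 (0.14) and Hsp90aa1 (0.045) were above it. Hspa1a was also above 0 with limma, the replicate block and the Xist or Y term, Dnajb4 without WT replicate 1 and Bag3 without KO replicate 3.

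**Figure D1:**
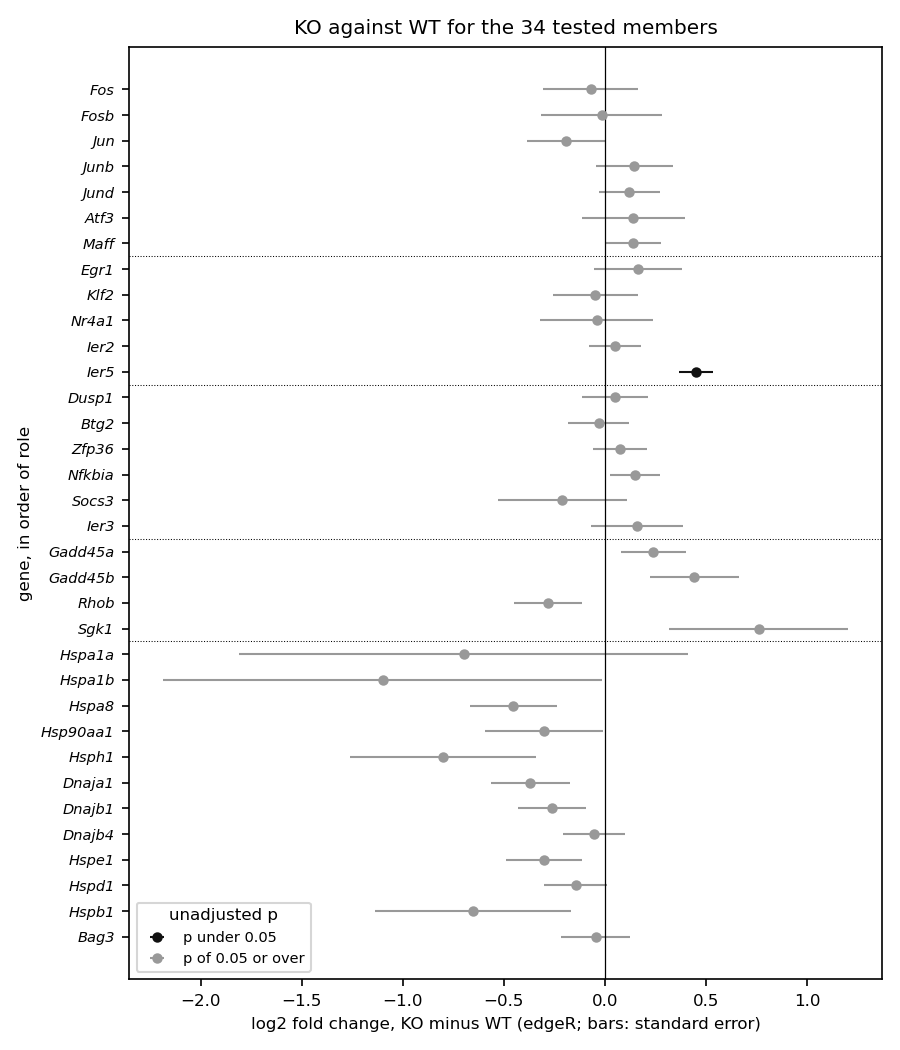
Log2 fold change of KO over WT on the horizontal axis for the 34 genes tested, with standard errors as bars and dotted lines between the groups (AP-1, other transcription regulators, feedback inhibitors, other induced genes, heat shock). Ier5, in black, had an unadjusted p under 0.05, and the 12 heat shock genes at the foot lie left of 0 in this fit, 4 of them right of it without WT replicate 2, with the widest bars on Hspa1a and Hspa1b.

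The AP-1 proteins and their partners bind DNA in pairs and were represented by 7 genes. Fos, the partner that gives AP-1 its strength, measured 1047, 510, 888 and 641 CPM in WT replicates 1 to 4. It measured 868, 523, 721 and 829 CPM in KO replicates 1 to 4. The genotypes overlapped fully, with replicate 2 lowest in each (771 ± 242 in WT against 735 ± 154 in KO, mean and SD, n = 4). KO minus WT came to -0.07 on the log2 scale, with a standard error of 0.23 (adjusted p = 0.968), and omitting a single mouse turned it above 0 in 3 cases, to 0.11 for WT replicate 1, 0.014 for WT replicate 3 and 0.068 for KO replicate 2. Per unit of length Fos stood at rank 143 of the 16109 genes tested, at a mean of 319 fragments per kilobase of transcript, scaled for depth (FPKM).

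Jun, the central partner of Fos, measured 626, 446, 702 and 469 CPM in WT replicates 1 to 4. In KO it measured 529, 339, 541 and 553 CPM, again with replicate 2 lowest. Its log2 fold change was -0.19 with a standard error of 0.19 (adjusted p = 0.831), and it ranked 285 by FPKM. The fold change of Jun was -0.048 without KO replicate 2 and -0.060 without WT replicate 3. Fosb ranged from 257 to 592 CPM and Junb from 215 to 358 over the 8 mice, with both genotypes covering most of that range. Atf3, a stress-induced repressor that pairs with Jun proteins, ranged from 129 to 244 CPM. Maff, a small partner without an activating part, ranged from 21.4 to 32.5 CPM and Jund, the Jun protein of resting cells, from 9.11 to 13.0. None of the 7 was called, and their log2 fold changes lay between -0.19 (Jun) and 0.15 (Junb). With 1 mouse left out Junb ran from 0.049 to 0.288 and Atf3 from 0.005 to 0.317. Jund ran from 0.038 to 0.221 and Maff from 0.058 to 0.242. Of the 50-base stretches of the Jund transcript, 48.3% also occur in the gene model Gm11175, so its count is uncertain.

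Ier5 was the called gene. It encodes a small nuclear protein of the immediate early family that is known to act on Hsf1. Its gene lies on chromosome 1 of GRCm38 at chr1:155096361-155099636 on the minus strand. WT replicates 1 to 4 measured 56.6, 56.2, 60.7 and 47.6 CPM. KO replicates 1 to 4 measured 75.4, 70.1, 78.8 and 78.3 CPM. Every KO mouse lay above every WT mouse, which held for 2.17% of all genes tested, and the group means were 55.3 ± 5.53 and 75.7 ± 3.96 (SD, n = 4). The log2 fold change was 0.45 with a standard error of 0.084. The unadjusted p from edgeR was 0.000399 and the adjusted p was 0.378. Over 15 alternative fits the log2 fold change lay between 0.39 and 0.51 and the unadjusted p stayed under 0.05 in all of them, while the adjusted p ran from 0.00325 with DESeq2 to 0.803 without KO replicate 3. Ier5 was also among the steadier of the 34 genes, with a spread within genotypes (SD of log2 CPM 0.119) at percentile 19.7 of all genes tested. No 50-base stretch of its transcript occurs in another annotated gene.

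The promoter of Ier5 is shown because it is the gene that was called, and for comparison with the heat shock promoters further on. The window runs from 250 bases before the start to 50 after it in RefSeq (GRCm38.p6, chr1:155099587-155099886, minus strand), where 31 of the 35 genes were found. Capitals mark both matches to the CCAAT box (CCAAT or its reverse ATTGG), which 41.1% of the 27025 genes with a promoter hold.
Ier5: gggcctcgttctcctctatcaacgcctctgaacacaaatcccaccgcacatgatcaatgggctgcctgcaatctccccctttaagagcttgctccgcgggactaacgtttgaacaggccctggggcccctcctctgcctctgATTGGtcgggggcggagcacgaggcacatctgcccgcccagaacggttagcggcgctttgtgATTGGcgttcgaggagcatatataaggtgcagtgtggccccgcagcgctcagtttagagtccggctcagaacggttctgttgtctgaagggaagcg
Neither form of the heat shock element searched below, nor a match to the cAMP response element, was found in these letters.

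The other transcription regulators were Egr1, Klf2, Nr4a1 and Ier2, none of which was called. Ier2, a short-lived nuclear protein, measured 352, 305, 348 and 258 CPM in WT and 377, 269, 322 and 341 in KO, replicates 1 to 4 in order. These values overlapped throughout, and the log2 fold change was 0.05 with a standard error of 0.13 (adjusted p = 0.953). Ier2 ranked 229 by FPKM. Egr1, a zinc-finger activator induced by growth factors and shear, ranged from 392 to 738 CPM, with the lowest value in WT replicate 2 and the highest in KO replicate 4. Nr4a1, an orphan nuclear receptor, ranged from 79.8 to 196 CPM and Klf2, best known from endothelium and T cells, from 3.53 to 6.42. Their log2 fold changes were 0.16 for Egr1, -0.04 for Nr4a1 and -0.05 for Klf2. Egr1 ran from 0.041 without WT replicate 2 to 0.31 without KO replicate 2, and Nr4a1 (0.19 without WT replicate 1) and Klf2 (0.11 without KO replicate 2) turned above 0.

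Feedback inhibitors end the response, and 6 of the genes were grouped here, Ier3 among them although its known role is in survival. Dusp1 removes phosphate from MAP kinases and ranged from 111 to 167 CPM. Zfp36 (tristetraprolin) binds AU-rich messages and brings about their decay, and it ranged from 212 to 298 CPM. Btg2, which slows the cell cycle and recruits deadenylases, ranged from 121 to 200 CPM, and Nfkbia, which holds NF-κB in the cytoplasm, from 70.1 to 97.2. Socs3, an inhibitor of cytokine receptor kinases, ranged from 29.4 to 91.2 CPM, with its highest value in WT replicate 1. Ier3, the survival factor, ranged from 8.50 to 15.7 CPM. None of the 6 was called, and their log2 fold changes lay between -0.21 (Socs3, 0.26 without WT replicate 1) and 0.16 (Ier3, 0.050 without WT replicate 2 and 0.37 without WT replicate 3). Nfkbia reached an unadjusted p of 0.0401 in edgeR when WT replicate 2, its highest WT mouse, was left out (log2 fold change 0.26).

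Messages of this kind are short-lived in part through AU-rich elements in their 3′ untranslated regions, to which Zfp36 itself binds. The nonamer TTATTTATT was found in the 3′ untranslated region of 5 of the 22 tested immediate early genes (Fos, Maff, Dusp1, Zfp36 and Nfkbia), in 0 of the 12 heat shock genes, and in 7.80% of 13033 tested genes with such a region in GENCODE M21. It was read on the sense strand of the longest coding transcript. One site of each is shown because these 5 genes span the AP-1 and feedback roles, with the nonamer in capitals and 9 bases on each side.
Fos: gttttcaatTTATTTATTaagatggat
Maff: tccacactcTTATTTATTgcacgaatc
Dusp1: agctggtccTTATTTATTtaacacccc
Zfp36: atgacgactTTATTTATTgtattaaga
Nfkbia: gaccacgttTTATTTATTgtgcttttg
The first base of the nonamer is base 655 of the 815 of the Fos region, 933 of 1221 in Maff, 103 of 690 in Dusp1, 589 of 774 in Zfp36 and 296 of 512 in Nfkbia. The recognition element known for the worm protein MEX-3, a bipartite motif of AG and UA blocks, was matched in 16 of the 22 immediate early genes and 8 of the 12 heat shock genes, against 74.2% of all tested genes with a region to search. A match of letters is no binding site, and both shares lay near that of all genes.

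Of the remaining induced genes, Gadd45a and Gadd45b, sensors of growth arrest and DNA damage, measured 22.9 to 39.1 CPM and 17.6 to 42.9 CPM. The log2 fold change was 0.44 for Gadd45b (standard error 0.22, adjusted p = 0.624) and 0.24 for Gadd45a (standard error 0.16, adjusted p = 0.724). Rhob, an early-induced small GTPase, ranged from 39.1 to 75.3 CPM with a log2 fold change of -0.28 (adjusted p = 0.680). It was -0.15 without KO replicate 2 and -0.41 without KO replicate 4, where it passed the unadjusted limit. Sgk1, a kinase induced by serum, glucocorticoids and aldosterone, varied most among the immediate early genes tested. It measured 75.7, 39.4, 15.8 and 49.2 CPM in WT replicates 1 to 4 and 63.9, 58.7, 51.2 and 131 in KO. The lowest WT mouse and the highest KO mouse stood apart from the rest, an 8.30-fold range, and the remaining 6 values overlapped. The log2 fold change of Sgk1 was 0.76 with a standard error of 0.44 (adjusted p = 0.671). It was 0.36 without KO replicate 4, 0.49 without WT replicate 3 and 1.13 without WT replicate 1, where it passed the unadjusted limit. With the replicate number as a block, 3 of these genes passed the unadjusted limit: Sgk1 (0.85, adjusted p = 0.378), Gadd45b (0.46, adjusted p = 0.393) and Gadd45a (0.22, adjusted p = 0.435). Gadd45b also passed it with DESeq2 and with no filter (0.45 each), without WT replicate 1 (0.57) and without KO replicate 3 (0.54), and Gadd45a was at 0.096 without KO replicate 4. Of the Gadd45a transcript, 16.1% of the 50-base stretches are shared with the gene model E230016M11Rik.

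**Figure D2:**
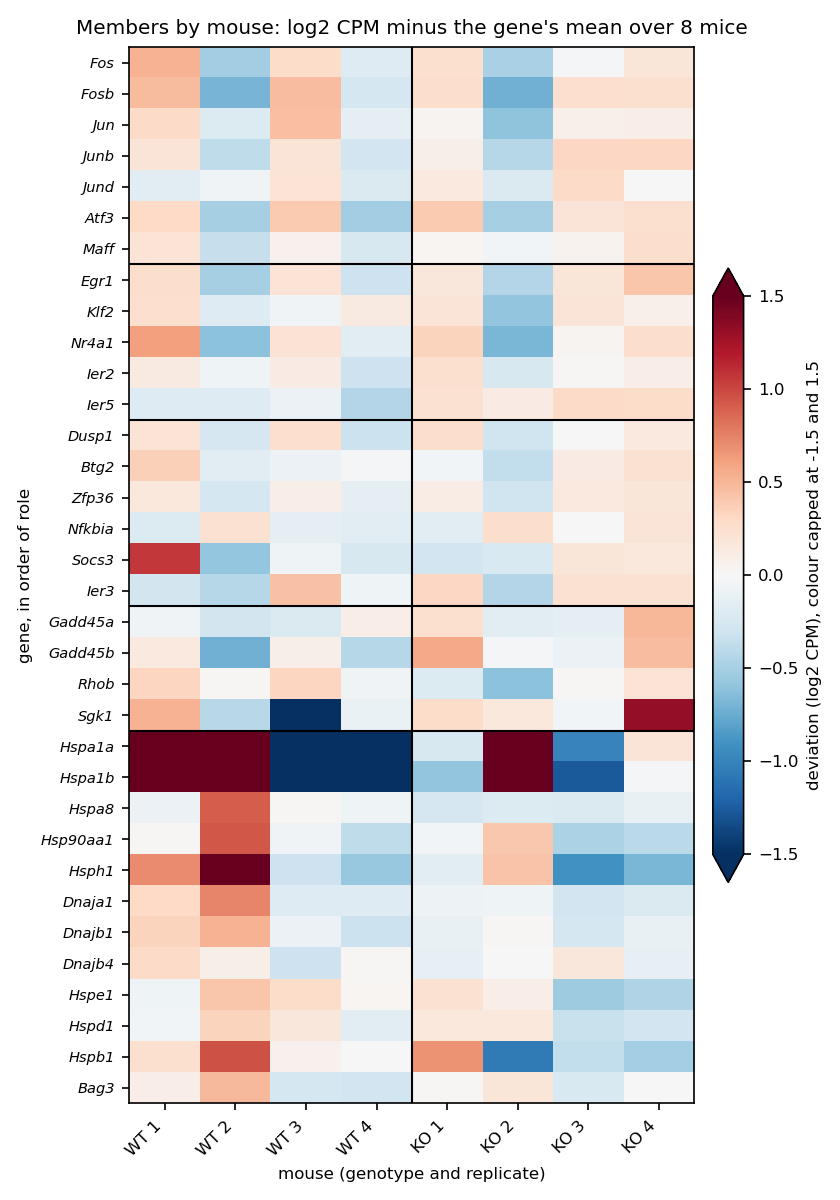
Heat map of the 34 genes tested (rows, in order of role) in the 8 mice (columns), coloured by log2 CPM minus the gene's mean over the 8 mice, with colours capped at 1.5 either way. Replicate 2 of both genotypes is blue over most immediate early rows, and WT replicate 2 is red over all 12 heat shock rows.

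Immediate early genes were high or low together in individual mice of both genotypes. KO replicate 4 lay above the gene's own mean in 22 of the 22 genes, and KO replicate 1 in 18, KO replicate 3 in 17, WT replicate 1 in 17 and WT replicate 3 in 15. In contrast, WT replicates 2 and 4 lay above it in 2 genes each and KO replicate 2 in 3. The summed level of the 23 genes was 5172, 3191, 4859 and 3509 CPM in WT replicates 1 to 4 and 4653, 3072, 4453 and 4890 CPM in KO. The low mice, replicates 2 of both genotypes and WT replicate 4, lay between 3072 and 3509 CPM and the other 5 between 4453 and 5172. The group means of the sum were 4183 ± 979 CPM in WT and 4267 ± 817 CPM in KO (SD, n = 4), a difference far smaller than the spread.

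**Figure D3:**
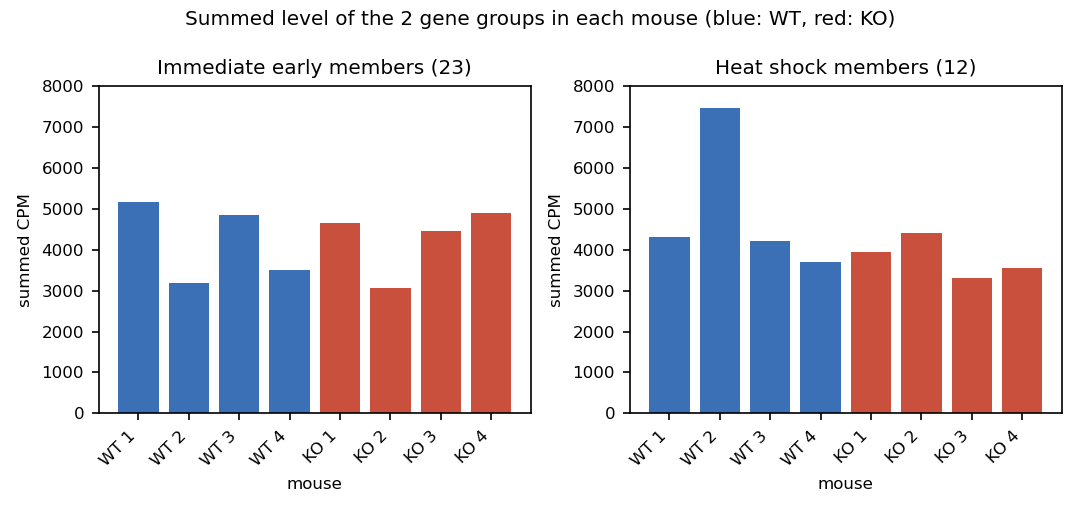
Summed CPM of the 23 immediate early genes (left) and the 12 heat shock genes (right) in each mouse, WT in blue and KO in red, both axes starting at 0. The immediate early sum is lowest in replicate 2 of each genotype, and the heat shock sum of WT replicate 2 (7464 CPM) is far above the other 7 mice (3319 to 4417 CPM).

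None of the 12 heat shock genes was called, although Hsph1 and Dnaja1 were called lower with the replicate block. Their fold changes were below 0, but for 4 of the 12 that sign turned when WT replicate 2 was left out. Their summed level was 4315, 7464, 4213 and 3701 CPM in WT replicates 1 to 4, and 3953, 4417, 3319 and 3549 CPM in KO. Each KO sum lay below the WT sum of the same number, though no label says that equal numbers form a pair. WT replicate 2 held the highest value of all 8 mice for 11 of the 12 genes, with Dnajb4 the exception, as it did for 16.3% of all genes tested, and its median deviation from the genes' means was 0.82 on the log2 scale. The same mouse had one of the lowest immediate early sums. The share of reads on mitochondrial genes was 6.95% in WT replicate 2, inside the range of the other 7 mice (5.63 to 11.6%).

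Hspa8, the constitutive cytosolic Hsp70 that uncoats clathrin and folds new proteins, was the most abundant of the 35 by FPKM, at rank 104 of the genes tested. It measured 1727, 3433, 1854 and 1757 CPM in WT replicates 1 to 4 and 1537, 1592, 1580 and 1695 CPM in KO. All 4 KO mice were below all 4 WT mice, as in 1.87% of all genes tested, though the nearest values, 1695 and 1727, differ little. The group means were 2193 ± 829 and 1601 ± 66.8 (SD, n = 4), and the log2 fold change was -0.45 with a standard error of 0.22 (adjusted p = 0.616). Without WT replicate 2 it was -0.15 (adjusted p = 0.707), and it passed the unadjusted limit with DESeq2 and with no filter (-0.45 each) and without WT replicate 1 or 4 (-0.55 each). Of the 50-base stretches of its transcript, 74.8% occur in other annotated genes, chiefly Gm15459, so reads of Hspa8 may be split or dropped in counting.

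The stress-inducible Hsp70 pair Hspa1a and Hspa1b, silent in most resting cells, varied more than any other of the 34 genes tested. Hspa1a measured 36.0, 85.9, 3.13 and 1.09 CPM in WT replicates 1 to 4 and 10.2, 47.5, 6.01 and 13.8 CPM in KO, a 79.1-fold range. Hspa1b measured 118, 308, 9.47 and 7.90 CPM in WT and 26.0, 126, 16.3 and 38.7 CPM in KO, a 39.1-fold range. Replicate 2 was the highest mouse in each genotype for both genes, and WT held both the highest and the lowest mice. Their spreads within genotypes stood at percentiles 99.7 (Hspa1a) and 99.7 (Hspa1b) of all genes tested. The log2 fold changes were -0.70 with a standard error of 1.11 and -1.10 with a standard error of 1.09 (adjusted p = 0.913 and 0.826), and they ran from -1.64 to 0.54 for Hspa1a and from -2.03 to 0.20 for Hspa1b over the alternative fits. The 2 transcripts share most of their sequence (62.3% of the 50-base stretches of Hspa1b occur in Hspa1a), so the division of reads between them is uncertain, while their levels moved in parallel.

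Hsph1, an Hsp110 protein that releases nucleotide from Hsp70, measured 269, 467, 133 and 111 CPM in WT replicates 1 to 4 and 148, 223, 87.8 and 103 CPM in KO. Replicates 1 and 2 stood above replicates 3 and 4 in both genotypes, and the genotypes overlapped. KO minus WT came to -0.80 on the log2 scale, with a standard error of 0.46 (adjusted p = 0.669), and -0.29 without WT replicate 2. It passed the unadjusted limit without WT replicate 4 (-1.05), without KO replicate 2 (-1.11) and with the Xist or Y term (-0.67). With the replicate number as a block it was -0.66 at an unadjusted p of 0.00337 in edgeR (adjusted p = 0.220). No 50-base stretch of Hsph1 is shared with another gene.

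Among the partners of Hsp70, Dnaja1 ranged from 178 to 362 CPM, Dnajb1 from 66.6 to 120, Dnajb4 from 7.32 to 11.1 and Bag3, a nucleotide exchange factor that leads clients to autophagy, from 37.6 to 64.0. Their log2 fold changes were -0.37 (Dnaja1, adjusted p = 0.642), -0.26 (Dnajb1, adjusted p = 0.709), -0.05 (Dnajb4, adjusted p = 0.959) and -0.05 (Bag3, adjusted p = 0.972). Dnaja1 passed the unadjusted limit with the replicate block (-0.32, adjusted p = 0.441), with the Xist or Y term (-0.33) and without WT replicate 3 or 4 (-0.48 each), and was at -0.15 without WT replicate 2. Dnajb1 passed it without WT replicate 4 (-0.39) and was at -0.11 without WT replicate 2. Hsp90aa1, the inducible cytosolic Hsp90, ranged from 425 to 1122 CPM with a log2 fold change of -0.30 (adjusted p = 0.825), which was 0.045 without WT replicate 2. Of its transcript, 58.5% of the 50-base stretches are shared with other genes, and 28.8% of that of Dnaja1.

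Hspd1 and Hspe1 encode the Hsp60 and Hsp10 subunits of the mitochondrial folding chamber. Hspd1 measured 923, 1195, 1066 and 841 CPM in WT replicates 1 to 4 and 1059, 1055, 754 and 775 CPM in KO, overlapping ranges with a log2 fold change of -0.14 (standard error 0.16, adjusted p = 0.845). It was the second most abundant of the 35 by FPKM, at rank 126. Hspe1 ranged from 152 to 297 CPM with a log2 fold change of -0.30 (adjusted p = 0.698), and it passed the unadjusted limit without KO replicate 1 (-0.45). Without WT replicate 2 Hspd1 was at -0.051, and without KO replicate 3 Hspe1 was at -0.19. For each of the pair 44.8% of the 50-base stretches occur in other annotated genes. Hspb1 (Hsp25), a small chaperone of muscle and stressed epithelia, was barely present, at 0.51, 0.89, 0.44 and 0.42 CPM in WT and 0.71, 0.16, 0.30 and 0.27 CPM in KO. Its log2 fold change of -0.65 had a standard error of 0.49 (adjusted p = 0.758) and rested on few reads. It was -0.35 without WT replicate 2 and -1.21 without KO replicate 1, where it passed the unadjusted limit, and 51.6% of the 50-base stretches of its transcript occur in Hsp25-ps1.

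**Figure D4:**
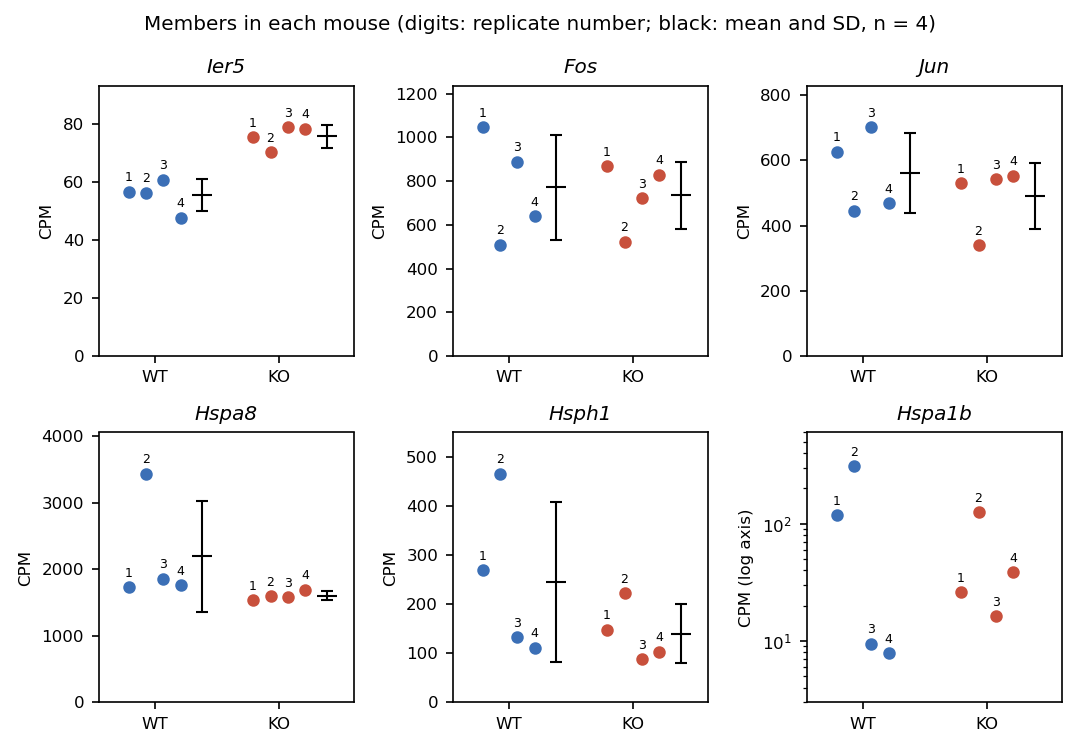
CPM of Ier5, Fos, Jun, Hspa8, Hsph1 and Hspa1b in each mouse, WT in blue and KO in red, with replicate numbers over the points and mean and SD (n = 4) in black, left out for Hspa1b, whose axis is logarithmic. Of these 6 genes, Ier5 alone has all KO mice above all WT mice, the Hspa8 groups are separated by little except WT replicate 2, and replicates 1 and 2 lie above 3 and 4 for Hsph1 in both genotypes.

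Heat shock genes also differed between the replicates with Y transcripts (1 and 2) and those with Xist (3 and 4), a pattern noticed in the values and given with no test. Both mice with Y transcripts lay above both with Xist in WT for 9 of the 12 heat shock genes, against 18.1% of all genes tested. In KO this held for 7 of the 12, against 24.5% of all genes. All 4 lay above the other 4 for Hsp90aa1, Hsph1, Dnaja1 and Bag3, which 4.46% of all genes tested did. The means were 277 against 109 CPM for Hsph1, a ratio of 2.54, and 769 against 472 CPM for Hsp90aa1, a ratio of 1.63. For Hspa1b they were 144 against 18.1 CPM, with KO replicate 4 above KO replicate 1. WT replicate 2, the highest mouse for most of these genes, is among the mice with Y transcripts, and without it, a choice made after seeing the data, their means were 214 (Hsph1), 651 (Hsp90aa1) and 89.8 CPM (Hspa1b). Of the 53 other heat shock genes tested, it held for 12 in WT and 32 in KO, and for 3 with all 4 above. None of the 22 immediate early genes had both mice with Y transcripts above both with Xist in either genotype, while of the 56 others tested 7 did in WT and 6 in KO. The opposite order held for 1 of the 22 in WT (Ier3), against 17.4% of all genes, and for 9 of the 22 in KO (Jun, Junb, Maff, Egr1, Ier5, Btg2, Zfp36, Socs3 and Rhob), against 26.5%, and for none of them in both genotypes. Of the 56 others it held for 7 in WT and 16 in KO. Sex, replicate number and any order of handling run together here and cannot be told apart. The summed level of the 11 T cell markers was 23.0 to 59.6 CPM in replicates 1 and 2 and 34.4 to 152 in replicates 3 and 4, and that of the 10 villus enterocyte markers 1307 to 2554 against 1957 to 8121 CPM. Their part in the result was not tested.

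The promoters of 3 heat shock genes are shown because these genes carry the heat shock element, the site to which Hsf1 binds, in the 2 forms searched. The form with 3 units (GAANNTTCNNGAA or TTCNNGAANNTTC, each the reverse complement of the other) was found in Hsph1, Hspe1 and Hspd1, 3 of the 10 heat shock genes with a promoter in the table, in 0 of 21 immediate early genes and in 0.662% of all 27025 genes. The form with 2 units (GAANNTTC or TTCNNGAA, each its own reverse complement and contained in the longer form) was found in 9 of the 10, all but Dnajb1, in 2 of the 21 (Jun and Sgk1) and in 17.0% of all genes. A gene with several starts counted if the window of any of them held a match. Some windows of Dnaja1, Dnajb4, Hspd1 and Sgk1 held neither form, and the Bag3 match lies 42 bases after the start. Capitals mark the longest form found, and matches of the form with 2 units elsewhere in a window stay in lower case. The capitals show 3 units in Hsph1 (chr5:149636266-149636565, minus strand), 2 overlapping matches of the form with 3 units in Hspe1 (chr1:55087898-55088197, plus strand) and 2 units in Hspa1b (chr17:34959189-34959488, minus strand).
Hsph1: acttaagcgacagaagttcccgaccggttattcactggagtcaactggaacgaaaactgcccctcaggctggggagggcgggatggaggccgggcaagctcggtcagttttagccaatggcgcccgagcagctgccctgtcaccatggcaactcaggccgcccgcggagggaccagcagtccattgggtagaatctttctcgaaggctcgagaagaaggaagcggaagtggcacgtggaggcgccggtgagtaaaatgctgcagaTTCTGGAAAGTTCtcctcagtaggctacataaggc
Hspe1: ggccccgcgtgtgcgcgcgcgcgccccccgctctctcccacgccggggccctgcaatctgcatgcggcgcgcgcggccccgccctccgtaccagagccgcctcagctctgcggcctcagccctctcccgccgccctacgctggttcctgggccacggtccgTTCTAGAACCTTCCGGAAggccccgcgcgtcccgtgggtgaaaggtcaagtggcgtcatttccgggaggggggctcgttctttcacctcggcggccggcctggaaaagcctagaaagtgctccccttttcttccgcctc
Hspa1b: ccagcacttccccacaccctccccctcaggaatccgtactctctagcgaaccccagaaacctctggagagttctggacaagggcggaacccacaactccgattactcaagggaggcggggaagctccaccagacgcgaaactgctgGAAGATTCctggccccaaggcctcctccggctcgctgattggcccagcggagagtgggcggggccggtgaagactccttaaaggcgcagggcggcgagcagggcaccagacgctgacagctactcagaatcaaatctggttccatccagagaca
The element in Hsph1 starts 15 bases after the start used for the printed window and 36 after a second start in the table, the first of the matches in Hspe1 89 bases before it and the one in Hspa1b 104 bases before it. Hspe1 and Hspd1 lie head to head, so the stretch printed for Hspe1 is also the one found for Hspd1 on the other strand. The promoters of Hspa1a and Hspa1b differ at 4 of 300 bases. The cAMP response element TGACGTCA was found in Maff, Dusp1 and Btg2, 3 of the 21 immediate early genes, and in 2.03% of all genes, and the CArG box, the site of serum response factor, in Zfp36 alone of the 21 and in 1.81% of all genes. Sites further than 250 bases before the start lay outside the window, so this search cannot show that a gene lacks them. Hsp90aa1, Hspa8, Ier2 and Egr1 are the 4 genes with no window, and they were not searched.

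As a group the 34 genes varied between mice of one genotype more than most genes. The median SD of log2 CPM within genotypes was 0.326 over the 34 and 0.219 over all genes tested, and 27 of the 34 lay above that overall median. It was 0.315 for the immediate early genes (16 of 22 above) and 0.332 for the heat shock genes (11 of 12 above). WT replicate 2 was the highest mouse for 11 of the 12 heat shock genes, and their spread without it was not computed. These spreads also pool mice with Y transcripts and mice with Xist. With 4 mice per genotype, the standard errors of the log2 fold changes ran from 0.084 (Ier5) to 1.11 (Hspa1a).

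Other genes of the same responses, listed by hand with earlier results of these data known, were read from the same fit. Of 56 tested immediate early genes outside the 35, 13 rose in KO and 0 fell, against 5.33% and 3.05% of all genes, and their median log2 fold change was 0.19. None passed adjustment (smallest adjusted p = 0.379). The orphan receptor Nr4a3 had the largest log2 fold change, 2.20 with a standard error of 0.42, from 0.986 ± 0.618 CPM in WT to 4.52 ± 0.864 CPM in KO (SD, n = 4). Its log2 fold change ran from 0.591 to 2.66 over the alternative fits. Dusp2, Dusp10, Dusp6 and Dusp8, phosphatases of MAP kinases, had log2 fold changes of 0.99, 0.88, 0.66 and 0.50. In the same order they ran from 0.442 to 1.11, 0.309 to 1.029, 0.533 to 0.775 and 0.375 to 0.547 over these fits. Sertad1 (0.59), Errfi1 (0.43), an inhibitor of the EGF receptor, and Tnfaip3 (0.41), which restrains NF-κB, were at 20.7 to 41.7 CPM on average in WT. The dimerization inhibitors Id2 and Id3 rose by 0.45 and 0.31, and Arc, Egr4 and Cxcl10 by 0.71, 0.90 and 1.44. Over the alternative fits Arc ran from 0.579 to 0.877, Egr4 from 0.198 to 1.091 and Cxcl10 from 0.343 to 1.735. Tnfaip3 was called in 9 of the 15 alternative fits, losing its call with limma and without WT replicate 1, 2 or 3 or KO replicate 3 or 4, and Egr4 in 14, losing it without KO replicate 4. In 9 of the 56 every KO mouse lay above every WT mouse, against 2.17% of all genes tested. Beside this, 7 of the 11 T cell markers rose in KO and 0 fell, with summed levels of 23.0, 23.2, 34.4 and 69.5 CPM in WT replicates 1 to 4 and 43.9, 59.6, 152 and 109 CPM in KO. No T cell marker was at 0 counts over the 8 mice. Villus enterocyte markers were higher in 10 of 10, with 2 called, at 1307 to 3461 CPM in WT and 1936 to 8121 CPM in KO. The part of either cell type in the result was not tested.

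Of 53 tested heat shock genes outside the 35, 2 fell in KO and 0 rose, or 3.77% called against 8.38% of all genes (3.05% lower), and the median log2 fold change was -0.09, with 43 of the 53 below 0. Serpinh1, the collagen chaperone of the endoplasmic reticulum, fell by 0.95 (standard error 0.26, adjusted p = 0.518), from 1.51 to 0.777 CPM, and it is a gene of stromal cells as well. The 5 tested stromal markers had 0 calls in either direction, with summed levels of 10.1 to 20.4 CPM in WT and 15.1 to 27.2 in KO. Hsf1, the factor that drives the response, fell by 0.22 (standard error 0.093, adjusted p = 0.572), from 53.8 ± 5.51 to 46.1 ± 4.01 CPM (SD, n = 4), with overlapping mice. Hsf1 was called in 7 of the 15 alternative fits and lost its call with limma, with no filter and without WT replicate 1, 2 or 4 or KO replicate 2, 3 or 4, whereas Serpinh1 was called in all 15. The log2 fold change ran from -1.117 to -0.288 for Serpinh1 and from -0.285 to -0.155 for Hsf1 over these fits. WT replicate 2 was the highest mouse in 26 of these 53 genes (49.1%, against 16.3% of all genes). With the replicate block 7 of them were lower and 1 higher at the unadjusted limit, or 15.1%, against 11.3% of all genes in that fit.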

How the data were processed

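Crypt RNA of 4 WT and 4 KO mice was sequenced on an Illumina NovaSeq instrument by a service provider, and the submitters' processing notes name CASAVA, HISAT2 2.0.5 and featureCounts 1.5.0-p3, while strand setting and treatment of reads that map to several places are not given in the sources used here. The authors deposited raw counts per gene, with no normalization, and FPKM values made from these counts by dividing by gene length and library size. Their deposited fold changes and p-values, and 5 per-sample columns of other measures, were not used. The KO and WT groups come from the genotype labels. The 35 genes and all lists were chosen with earlier results of these data known.

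Counts were analysed with edgeR 4.0.16 in R 4.3.3 (filterByExpr with a minimum count of 10, TMM, quasi-likelihood test on genotype), with Benjamini-Hochberg adjustment over the 16109 genes tested. Values are given per mouse for a gene that was called, whose genotypes did not overlap, or that was among the 5 most abundant by FPKM or the 5 with the widest spread, and other genes of the responses are named where the unadjusted p was under 0.05. Alternatives were RLE and upper-quartile factors, no filter, DESeq2 1.42.0, limma 3.58.1 on log2(FPKM + 1), the replicate number as a block, a term for Xist or Y transcripts, and each mouse left out in turn. The residuals about the genotype mean, compared between WT and KO mice of one number, had correlations of 0.129, 0.501, 0.141 and 0.294. All exceeded 0.1, and the controls were littermates, but no label says that mice of equal number form a pair. Mice of equal number also share Xist or Y transcripts, so pairing was not settled. The replicate block is therefore given as an alternative, and the reported fit used genotype alone. Of the pairs of unlike number, KO replicate 3 with WT replicate 4 reached 0.237, above its own number, and the others lay at 0.063 or lower. The fits were tested on simulated data. The 8 libraries are labelled as separate mice, and every pair within a genotype differed by more than counting error (chi-square over its degrees of freedom 24.2 to 89.7). Depth limits genes with few reads, such as Hspb1 and Cxcl1. Sequences come from RefSeq (GRCm38.p6) and GENCODE M21. Figures were drawn with matplotlib 3.10.9 in Python 3.11.15.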

Additional observations from a re-analysis of the deposited data

Results flagged for a closer look

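In groups of 4 mice, a value was set apart when its gap to the nearest other mouse exceeded Dixon's critical share of the group's range at the 95% level. Of 68 groups examined (34 genes in 2 genotypes), 7 were set apart, where chance would give about 3.4 if the groups were independent. Genes of one programme move together between mice, so the groups are not independent and no excess can be read from the 7. KO replicate 2 accounted for 4 of the 7, each on the low side and each an immediate early gene: Fosb at 257 CPM against 501 to 508 in the other KO mice, Jun at 339 against 529 to 553, Zfp36 at 212 against 284 to 298, and Ier3 at 8.50 against 13.5 to 14.4. WT replicate 2 accounted for 2 on the high side, Hspa8 at 3433 CPM against 1727 to 1854 in the other WT mice and Nfkbia at 94.6 against 70.1 to 73.2. KO replicate 4 was set apart for Sgk1 at 131 CPM against 51.2 to 63.9.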

How the results depend on the processing

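Ier5 passed the unadjusted limit in all 15 alternatives, while 13 of the 34 genes, none of them called in any fit, changed direction in at least 1. The number of the 34 genes higher in KO at that limit, 1 in the reported fit, was 2 with no filter, 2 with DESeq2 and 4 with the replicate block, and 1 to 3 when 1 mouse was left out. The number lower, 0 as reported, was 1 with no filter, 1 with DESeq2, 2 with the replicate block, 2 with the Xist or Y term and 0 to 4 when 1 mouse was left out, with 4 reached without WT replicate 4 (Hspa8, Hsph1, Dnaja1 and Dnajb1). Of the other heat shock genes, the number lower was 1 with limma, 7 with the replicate block, 5 with the Xist or Y term and 1 to 4 with 1 mouse left out, and the number higher was 1 with the block and 0 to 1 with 1 mouse left out. Other immediate early genes gave 12 to 18 higher and 0 lower with 1 mouse left out. The heat shock median log2 fold change ran from -0.47 without WT replicate 4 to -0.08 without WT replicate 2, and the immediate early median from 0.02 without WT replicate 4 to 0.18 without KO replicate 2. Away from its reported direction, Hspa1a was at 0.064 with limma, 0.15 with the replicate block and 0.38 with the Xist or Y term, and Fosb at 0.021 with limma and 0.012 with the block. With 1 mouse left out the log2 fold change ran from -1.64 to 0.54 for Hspa1a, -2.03 to 0.20 for Hspa1b, -0.51 to 0.045 for Hsp90aa1, -0.15 to 0.040 for Dnajb4, -0.14 to 0.14 for Bag3, -0.40 to 0.26 for Socs3, -0.22 to 0.11 for Fos, -0.20 to 0.18 for Fosb, -0.12 to 0.11 for Klf2, -0.21 to 0.19 for Nr4a1, -0.035 to 0.14 for Ier2, -0.044 to 0.15 for Dusp1 and -0.12 to 0.094 for Btg2. The cause was not tested. Genes under about 1 CPM, such as Hspb1, are limited by depth.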
